A study of Rattus norvegicus with 12 samples.

Results

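The genes described here encode the proteins of the cytosolic ribosome. They were chosen by symbol: a large-subunit (Rpl) or small-subunit (Rps) symbol with a number and optional suffix, plus the stalk genes Rplp0, Rplp1 and Rplp2 and the gene Rpsa. The rule found 91 entries with 85 symbols among the 32883 genes counted, of which 53 were large-subunit entries, 35 small-subunit entries and 3 stalk entries. It used no measured value. The counts came from livers of healthy male rats. Total liver homogenate (TLH), the cells released by collagenase digestion, gave 2 libraries from the Dark Agouti (DA) strain and 2 from the Lewis (LEW) strain. An immune-enriched preparation, with parenchymal cells removed by centrifugation and an additional wash, gave 1 library of each strain. Nuclei extracted with CST buffer from snap-frozen liver gave 2 DA and 2 LEW libraries, and 2 Visium sections came from Wistar livers. The rats' age was given as 8 to 10 weeks in the series text, as 16 to 18 weeks in the study's methods, and as 10 weeks for DA and 13 weeks for LEW in the names of the TLH samples' data, so an age difference between strains cannot be told apart from strain in TLH. No age was given for the Wistar rats. TLH was run with version 2 of the 3′ chemistry and the other droplet libraries with version 3.

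A ribosome holds a small subunit, which reads the mRNA, and a large subunit, which joins the amino acids, and each protein is needed in about equal amounts for every particle. Their mRNAs are short, stable and among the most abundant of any cell. In vertebrates they typically begin with a run of pyrimidines at the 5′ end, the terminal oligopyrimidine tract, through which their translation is coupled to nutrient signals. Hepatocytes devote much of their mRNA to secreted proteins and metabolic enzymes.

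The start sites of the genes are shown first, since the pyrimidine tract is a feature that these genes share and that the choice by symbol did not use. Promoter sequences from RefSeq (build GRCr8) matched 65 of the 85 symbols with 66 promoters. In a window of 30 bases around the annotated start, on the strand of the gene, a run of at least 7 bases that were all C or T stood in 45 of these 66, or 68.2%, against 17.9% of all 33469 promoters. Runs of at least 7 bases of A or G, the same search on the other strand, stood in 6.06% of the ribosomal protein promoters and 20% of all. The motif CTTTC was found in 37.9% against 3.59%, and its reverse complement GAAAG in 1.52% against 3.82%. The windows of 5 genes that the results turn on, of Rpl41 and Rpl22l1, which have no such run in the window, and of the paralogue Rps4y2 are given here 5′ to 3′, with the longest run of at least 7 pyrimidines in capitals.
Rpl37a, chr9:81748076-81748105, plus strand: gcatgcccgttgcgTCTCTTCCTCTTCggg
Rpl35, chr3:43165907-43165936, minus strand: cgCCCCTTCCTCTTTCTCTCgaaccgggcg
Rpl10, chrX:157205835-157205864, plus strand: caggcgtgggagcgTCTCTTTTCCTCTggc
Rps18, chr20:4933730-4933759, plus strand: cacgtcacttccgCTCTCTCTTCCacagga
Rpl37, chr2:55942930-55942959, plus strand: tggtaggcgtaCTTTCTCTTCCggtctctt
Rpl41, chr7:1563483-1563512, minus strand: ggcggctcggaagtgacgacaccaagcacg
Rpl22l1, chr2:113683181-113683210, plus strand: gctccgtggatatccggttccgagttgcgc
Rps4y2, chr4:183000898-183000927, plus strand: gcgcgcagCTCTCCTCactcgcttgtgctc
The longest run was 18 bases in Rpl35, 13 in Rpl37a and Rpl10, 11 in Rps18 and Rpl37, and 8 in Rps4y2. The start positions are annotated ones, and a match describes the letters of the window only.

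Most of the genes were counted deeply, and a few were nearly empty. Of the 91 entries, 50 had more than 100000 unique molecular identifiers (UMIs, 1 per captured mRNA molecule) over the 12 libraries, and 9 had fewer than 100. Rpl41, which encodes the smallest ribosomal protein, led with 8.95% ± 0.60 (SD, n = 4) of ribosomal protein UMIs in TLH. It was followed by Rpl37a with 4.22% ± 0.23, the stalk gene Rplp1 with 3.51% ± 0.15, Rps27 with 3.14% ± 0.34 and Rpl35 with 3.06% ± 0.037. The 10 highest genes, which also included Rps28, Rpl10, Rps18 and Rps27a (ENSRNOG00000004426, the entry of this ubiquitin-fusion gene with most UMIs), held 33.2% to 36.0% of ribosomal protein UMIs in each TLH library. These shares describe captured 3′ ends and were not set per length.

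Several proteins that every ribosome holds had almost no counts. Rplp2, the partner of Rplp1 on the stalk, had 402 UMIs over the 12 libraries against 369157 for Rplp1. Rps29 had 1187, Rpl9 1544, Rpl35a 226 and Rps10 2820, Rpl8 had 1, and Rpl38 and Rpl39 had 0. These are counts on the annotation's entries, and the part that gene models or ambiguous reads play was not tested. A group of 12 entries held paralogues together with Rps4x, the better counted gene of which Rps4y2 is a paralogue. In this group Rps4x had 120235 UMIs, Rps27l 84364, Rps10l1 82431 and Rpl22l1 41250. The others were sparse, with 2278 for Rps4y2, 1484 for Rps18l1, 150 for Rpl39l, 145 for Rpl30l1, 100 for Rpl7l1, 63 for Rpl10l, 50 for Rpl3l and 47 for Rps19l2. Also, 4 symbols stood on several entries, 10 in all. Rpl21 had 175717, 3455, 155 and 0 UMIs on its 4 entries, Rpl32 76649 and 13474, and Rps27a 238574 and 31793, while both entries of Rpl7a had 1 UMI. Reads of near-identical copies could be split between such entries, so their single values are uncertain.

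Ribosomal protein genes supplied 8.81% to 10.5% of the UMIs of kept TLH cells, and 8.53% in DA and 4.61% in LEW immune-enriched cells. They supplied 1.96% to 3.48% of the nuclei and 3.40% and 3.05% of the Visium spots. The kept TLH libraries held 9593027 to 19850024 UMIs in 3844 to 7112 cells, the immune-enriched 9717183 and 40028899 in 1163 and 2677, the nuclei 4995131 to 10860039 in 2205 to 5262, and the sections 34447413 and 34816539 in 2429 and 2376 spots. TLH barcodes below the UMI limit, which can hold RNA that is not from an intact cell, had a ribosomal protein share of 9.98% to 11.8%, against 8.81% to 10.5% in kept cells. Among nuclei these barcodes had 3.75% to 4.97%, above every kept library. Clusters were named from marker genes with ribosomal protein genes left out of the clustering, and doublets were not removed.

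In the immune-enriched libraries T-like and B-like cells lay above every other class in both libraries. T-like cells, recognised by Cd3 genes, had the highest share at 32.9% in DA and 34.4% in LEW (95% exact binomial intervals 32.7% to 33.0% and 34.2% to 34.5%, which cover counting error only). B-like cells had 22.1% and 23.0%, plasmacytoid dendritic-like cells 18.4% and 20.1%, and natural killer (NK)-like cells 19.9% and 16.6%. Myeloid-like cells marked by Lyz2 and Cd74 had 15.3% and 14.9%. Marco myeloid-like cells, which carry markers of resident macrophages, had 8.65% and 7.68%, hepatocyte-like cells 4.21% and 3.60%, and erythroid-like cells 0.576% and 1.13%. With 1 library per strain these shares have no replicate check, and no order of strains was shared by all classes. Mitochondrial transcripts took 31.0% to 36.3% of hepatocyte-like UMIs and 14.7% to 22.5% of T-like UMIs. Without mitochondrial UMIs in the denominator the T-like mean was 41.3% and the hepatocyte-like mean 5.91%, and T-like cells were again the highest.

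**Figure D1:**
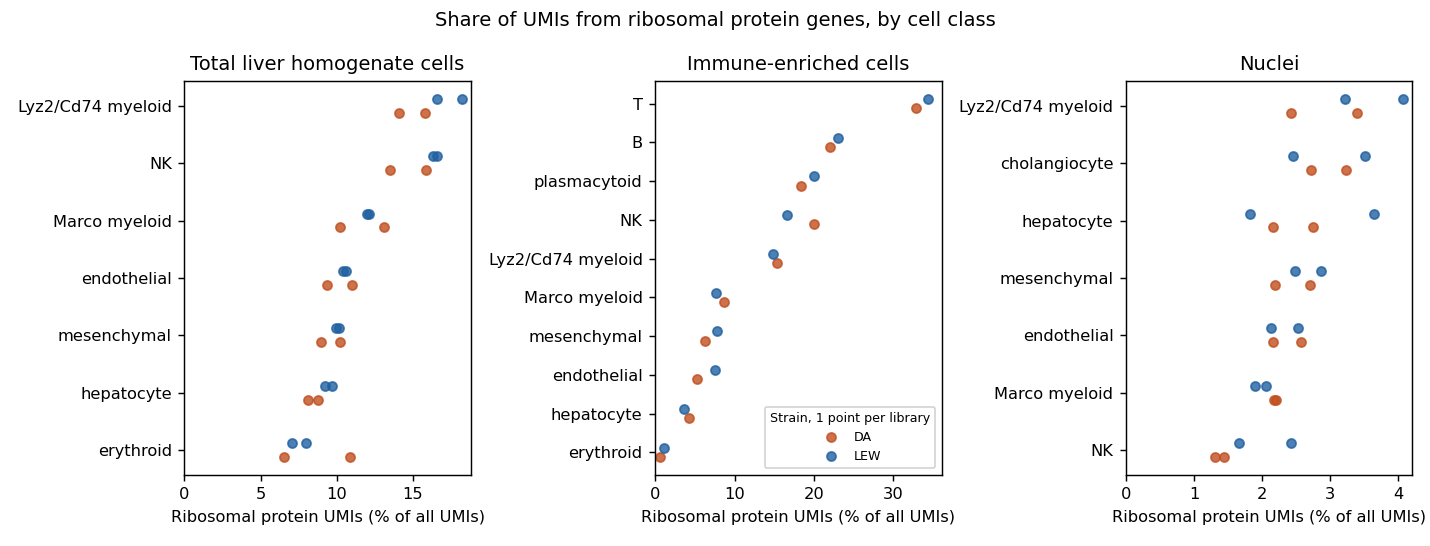
Ribosomal protein UMIs as a percentage of all UMIs (horizontal axis) in each named cell class (vertical axis) for TLH cells, immune-enriched cells and nuclei. Each point is 1 library, coloured by strain; lymphoid classes of the immune-enriched libraries reach 32.9% and 34.4%, whereas nuclei of every class lie at or below 4.07%.

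In TLH the immune classes were again the highest. NK-like cells had 15.6% ± 1.40 (SD, n = 4) and Lyz2/Cd74 myeloid-like cells 16.2% ± 1.71, against 11.9% ± 1.21 in Marco myeloid-like, 10.4% ± 0.69 in endothelial-like, 9.82% ± 0.58 in mesenchymal-like and 8.93% ± 0.68 in hepatocyte-like cells. NK-like and Lyz2/Cd74 myeloid-like cells were above hepatocyte-like, endothelial-like and mesenchymal-like cells in every library. An unnamed cluster of 292 cells had the highest share of any TLH cluster, 17.2% to 24.1% over libraries. Albumin took 2.52% to 3.12% of hepatocyte-like UMIs and still 1.04% to 1.92% of Marco myeloid-like UMIs, a measure of hepatocyte RNA outside hepatocytes in these libraries. In nuclei the class means lay lower and spanned a narrower range in percentage points. Lyz2/Cd74 myeloid-like nuclei had the highest at 3.28% ± 0.68 (n = 4), and cholangiocyte-like nuclei had 2.98% ± 0.48. Hepatocyte-like nuclei had 2.59% ± 0.80, mesenchymal-like 2.56% ± 0.29, endothelial-like 2.34% ± 0.23, Marco myeloid-like 2.08% ± 0.15 and NK-like 1.71% ± 0.50. The Lyz2/Cd74 myeloid-like mean was above the hepatocyte-like one, as in cells, and the NK-like mean was not. The NK-like values rest on 30 and 28 nuclei in DA but only 3 and 10 in LEW, and the Lyz2/Cd74 ones on 13 to 18 per library.

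Hepatocyte-like cells were themselves not uniform. The 8 TLH clusters with this name ranged from 4.93% in a cluster with 20.0% mitochondrial UMIs to 11.8% in the largest one, cluster 0. It held 5904 cells, was led by RGD1307603, Fabp7, Cela1 and Fabp1, and took its name only in a second, looser comparison that was set after the data had been seen. Its share was 12.4%, 10.3%, 12.7% and 11.8% in DA 1, DA 2, LEW 1 and LEW 2. The barcodes below the UMI limit had 11.4%, 9.98%, 11.8% and 11.2% in the same libraries. The part of free RNA in this cluster was not tested. In nuclei the 25 hepatocyte-like clusters differed in share and in depth. The 6 with the lowest shares, between 1.103% and 1.88%, had median counts of 2004.5 to 3985 UMIs per nucleus, whereas the 3 largest of the others had shares of 4.14% to 4.57% at 1102 to 1818 UMIs. Exceptions included the cluster with the highest share, 5.36%, which had a median of 3149 UMIs. Low-count barcodes below the limit had a high share too, and the part of free RNA in the high-share nuclei was not tested.

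The ribosomal protein share of TLH hepatocyte-like cells was higher in both LEW libraries than in both DA libraries, but this rested on which clusters were called hepatocyte-like. DA 1 had 8.74% and DA 2 8.08%, against 9.24% in LEW 1 and 9.66% in LEW 2. The means were 8.41% ± 0.47 and 9.45% ± 0.30 (SD, n = 2 each), a difference of 1.04 percentage points. The exact two-sided permutation test gave p = 0.333, the smallest that 2 against 2 libraries allow. Cells had been kept with unlike limits, at most 30% mitochondrial UMIs in DA 1, 20% in DA 2 and 40% in both LEW libraries. At least 1500 UMIs were asked in DA 1 and 2000 in the others. The mitochondrial limit left out 3063 barcodes in DA 2, with a ribosomal protein share of 3.25%. It left out 22, 6 and 1 in DA 1, LEW 1 and LEW 2. With the 5 clusters named in the first comparison alone the difference turned to -0.718 points. Cluster 0 held 26.2% and 24.5% of the DA hepatocyte-like cells and 42.0% and 55.6% of the LEW ones. Within the 8 clusters the strains overlapped in 7, and LEW was below DA in the other one.

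The other named TLH classes divided. In Lyz2/Cd74 myeloid-like cells both LEW libraries (18.2% and 16.6%) lay above both DA libraries (15.8% and 14.1%), and in NK-like cells LEW had 16.6% and 16.3% and DA 15.8% and 13.5%. The differences of 2.46 and 1.77 points gave an exact two-sided permutation p of 0.333, the smallest possible. These classes held 66 to 209 cells per library. In Marco myeloid-like, endothelial-like, mesenchymal-like and erythroid-like cells the strains overlapped. The LEW minus DA difference was 0.378 points in Marco myeloid-like cells (11.7% ± 2.06 against 12.0% ± 0.11, n = 2 each, exact permutation p = 1), 0.298 in endothelial-like and 0.482 in mesenchymal-like cells, and without DA 2 these 3 turned to -1.08, -0.518 and -0.136. In hepatocyte-like nuclei the libraries had 2.75% and 2.16% in DA and 3.64% and 1.82% in LEW, so both extremes were LEW libraries. The mix of clusters differed between these libraries, and its part was not tested. Cluster 5 of the nuclei, which had the lowest share, held 4.12% and 5.63% of the DA and 1.98% and 16.4% of the LEW hepatocyte-like nuclei. Cluster 10, also of low share, held 3.97% and 7.47% in DA and 3.91% and 2.62% in LEW. Within the 25 clusters of these nuclei LEW lay above DA in 7 and below in 0, and the strains overlapped in the other 18. The difference of 0.277 points (exact permutation p = 1) turned to -0.634 without LEW 1 and to -0.0166 without DA 2. Among the other named classes of nuclei LEW lay above DA in NK-like and below in Marco myeloid-like nuclei, and the strains overlapped in the rest.

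Gene by gene, with all 4 libraries in the fit, 1 ribosomal protein gene passed the strain test in TLH, the same one in each class tested. UMIs were summed per library and class and tested with edgeR's quasi-likelihood test at an adjusted p of 0.05 over all genes. In hepatocyte-like cells 1 of 79 members tested was called, against 4.14% of all genes (1.91% higher and 2.22% lower in LEW). In Marco myeloid-like cells it was 1 of 74 against 7.77% (3.55% and 4.23%), and in endothelial-like cells 1 of 75 against 3.09% (1.45% and 1.65%). In hepatocyte-like cells 20 of 79 had an unadjusted p under 0.05, against 21.2% of all genes. This gene was Rps4y2 (ENSRNOG00000031041), a paralogue of the small-subunit gene Rps4x. In hepatocyte-like cells it had 33 and 40 UMIs in DA and 113 and 115 in LEW, or 3.57 and 3.02 against 10.1 and 16.03 CPM (counts set to a common library total and scaled by the trimmed mean of M values, TMM). The strains did not overlap, and the log2 fold change was 1.98 ± 0.28 (SE), with an adjusted p of 0.00845 in edgeR.

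Rps4y2 was also higher in LEW in the other TLH classes tested. Marco myeloid-like cells had 10.0 and 14.2 CPM in DA and 49.8 and 40.7 in LEW, and the log2 fold change was 1.83 ± 0.31 (adjusted p = 0.00193, edgeR). Endothelial-like cells had 9.09 and 13.02 against 41.0 and 54.4 CPM, with 2.00 ± 0.32 (adjusted p = 0.00463, edgeR). The Marco myeloid-like call was lost without LEW 1, where the log2 fold change was 1.68 (adjusted p = 0.0880, edgeR). The endothelial-like call was lost without LEW 1 (2.24, adjusted p = 0.0650, edgeR) or LEW 2 (1.81, adjusted p = 0.0687). Over all genes, the endothelial-like fit without LEW 1 called 16 and the Marco myeloid-like one 57. Leaving out a DA library instead raised the number of members called. In Marco myeloid-like cells it was 11 of 75 without DA 1 (9 higher and 2 lower in LEW, beside 12.6% of all genes) and 5 of 75 without DA 2 (1 and 4, beside 7.89%). In endothelial-like cells it was 7 of 76 without DA 1 (5 higher and 2 lower, beside 7.84%) and 7 of 75 without DA 2 (1 and 6, beside 5.85%).

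The immune-enriched libraries, 1 per strain, showed the same direction for Rps4y2. Marco myeloid-like cells had 21 UMIs in DA and 173 in LEW, which are 30.7 and 112 raw CPM (set to a common total with no TMM scaling). Endothelial-like cells had 60.8 and 128 raw CPM and mesenchymal-like cells 49.6 and 147. T-like cells had 0 and 1 UMI and B-like cells 0 and 2, which is at or under the 3 counts taken as the floor, although the T-like cells carried 5797 and 5530 raw CPM of Rps4x. In hepatocyte-like nuclei Rps4y2 had 7, 5, 22 and 24 UMIs in DA 1, DA 2, LEW 1 and LEW 2, and its log2 fold change of 0.91 ± 0.66 did not pass (adjusted p = 0.979, edgeR). Rps4x did not pass the strain test in any class. In TLH hepatocyte-like cells it had 704 and 698 raw CPM in DA and 912 and 950 in LEW. Reads shared by Rps4x and Rps4y2 could move between them at counting, and whether a sequence difference between the strains does so was not tested.

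**Figure D2:**
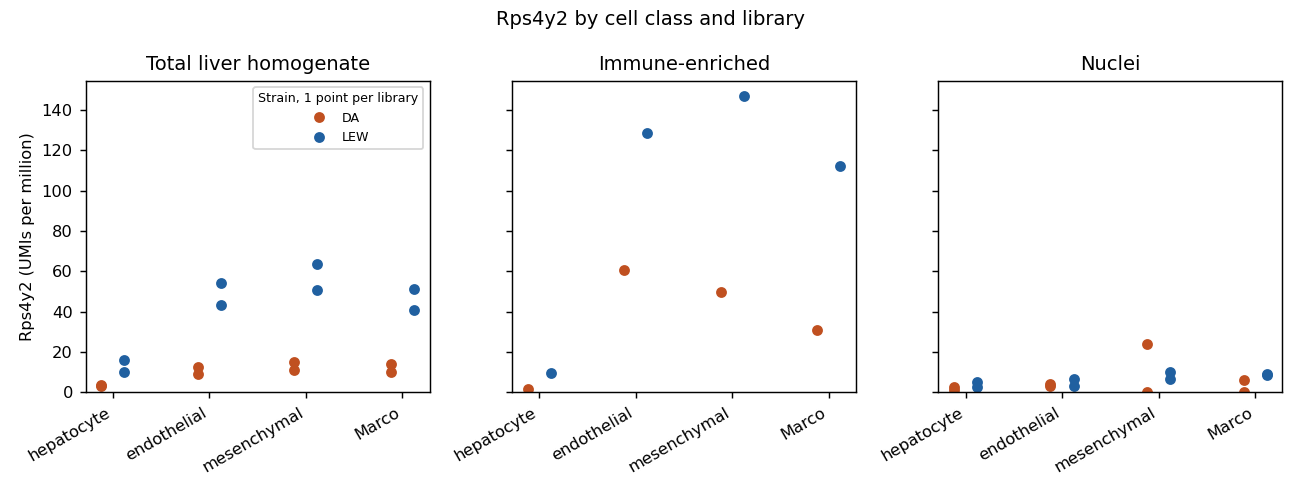
Rps4y2 in raw CPM (vertical axis) by cell class (horizontal axis) in TLH cells, immune-enriched cells and nuclei, 1 point per library coloured by strain. In TLH the LEW points lie above the DA points in hepatocyte-like, endothelial-like, mesenchymal-like and Marco myeloid-like cells, while nuclei of both strains stay at or below 23.7 raw CPM.

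Beyond Rps4y2, the TLH hepatocyte-like members leaned to LEW as a group. LEW lay above DA in all 4 libraries for 59 of 79 members, against 25.9% of all genes, and below for 0 of 79, against 27.6%. The median log2 fold change was 0.24, beside -0.01 over all genes tested. Cluster 0 had a larger weight in LEW, and with the first-step clusters alone the members' median was -0.05. In Marco myeloid-like cells 9 of 74 members lay above and 6 below (26.1% and 25.5% of all genes), in endothelial-like cells 12 and 8 of 75 (24.2% and 24.1%), and in hepatocyte-like nuclei 0 and 0 of 74 (18.1% and 16%). The largest gap after Rps4y2 among the better counted genes was Rpl10a, a large-subunit gene, at 280 and 288 CPM in DA and 388 and 394 in LEW hepatocyte-like cells. Its log2 fold change of 0.46 ± 0.12 did not pass the test (adjusted p = 0.0775, edgeR). In hepatocyte-like nuclei 0 of 74 members passed the strain test (1% of all genes, 0.409% higher and 0.595% lower), and 0 of 74 had an unadjusted p under 0.05 (edgeR; 7.45% of all genes). DESeq2 also called 0. This count and the next are not set beside the share of all genes. Without LEW 1 there was 1, which was lower in LEW. A test of whether the strain gap differed between cells and nuclei called 0 of 81 members and 0 of 11568 genes, with 0 and 383 at an unadjusted p under 0.05 (0% and 3.31%), and DESeq2 called 8 genes but 0 members.

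Some genes differed more between 2 libraries of 1 strain than between strains. Within the ribosomal protein UMIs of TLH hepatocyte-like cells, 12 of 78 members with at least 10 UMIs in each library lay over 0.5 log2 units apart between DA 1 and DA 2, and 7 between LEW 1 and LEW 2, while the median gap over all members was 0.116 and 0.0591 log2 units. These gaps, here and in the classes below, are not set beside those of other genes. They do not say whether ribosomal protein genes vary more than others. Rpl37, a large-subunit gene, made up 1.37% and 0.299% of ribosomal protein UMIs in DA 1 and DA 2 and 0.549% and 1.07% in LEW 1 and LEW 2. Rps10 followed the same pattern with 323 and 56 UMIs in DA and 104 and 190 in LEW. Rps25, Rpl30 and Rpl32 (ENSRNOG00000010746) were likewise higher in DA 1 and LEW 2. Rps19 and Rps6, the small-subunit protein phosphorylated by S6 kinase, went the other way in DA: Rps19 had 0.217% and 0.516% in DA and 0.316% and 0.279% in LEW.

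Most of these genes stood apart in the other classes of these libraries too. Between the DA libraries all of them were over 0.5 log2 units apart in Marco myeloid-like cells. In endothelial-like cells so were all that had at least 10 UMIs in each library. Rps10 fell under that minimum there, with 47.1 CPM in DA 1 and 3.26 in DA 2. The endothelial-like list also held Rpl22l1, Rps4y2, Rps10l1 and Rpl36a, which were not on the hepatocyte-like one. In endothelial-like cells Rpl37 had 1.37%, 0.287%, 0.532% and 1.03% in DA 1, DA 2, LEW 1 and LEW 2, and in Marco myeloid-like cells 1.26%, 0.269%, 0.462% and 0.868%. Members over 0.5 log2 units apart numbered 13 of 71 in DA and 4 in LEW in endothelial-like cells, and 11 of 73 and 6 in Marco myeloid-like cells. The same libraries were high and low for Rpl37 in all 3 classes, and the cause was not tested. The strain test had little precision for such genes: the log2 fold change of Rps10 in hepatocyte-like cells was -0.13 with an SE of 1.37.

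**Figure D3:**
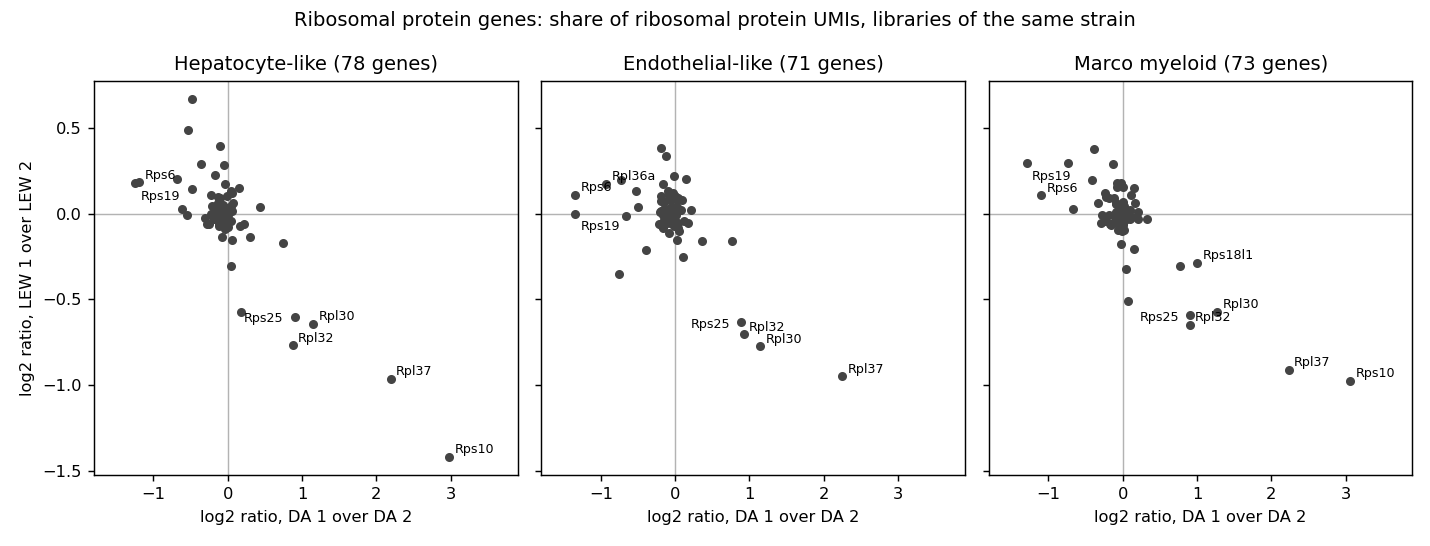
Log2 ratio of each gene's share of ribosomal protein UMIs between the 2 DA libraries (horizontal axis) and the 2 LEW libraries (vertical axis) of TLH, for 3 cell classes, 1 point per gene. Rpl37, Rpl30, Rpl32 and Rps25 stand apart at the lower right (higher in DA 1 and in LEW 2) and Rps19 and Rps6 at the left in each class.

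TLH hepatocyte-like cells had far more ribosomal protein mRNA per UMI than hepatocyte-like nuclei, 8.08% to 9.66% of UMIs against 1.82% to 3.64%. The immune-enriched hepatocyte-like cells had 4.21% in DA and 3.60% in LEW, so their range overlapped that of the nuclei. Without mitochondrial UMIs in the denominator it did not: they had 6.61% and 5.22%, against 1.88% to 3.796% in nuclei and 8.70% to 10.5% in TLH. All 80 members tested differed between TLH cells and nuclei, where 71% of all genes did. In cells 78 were higher (33.9% of all genes) and 2 lower (37%). The median log2 fold change was 2.51, beside -0.09 over all genes, and 1.74 beside -0.89 when libraries were scaled by their total UMIs, under which 74 were higher. TLH cells and nuclei differed also in chemistry version, in sequencer, in the rats used and in the mitochondrial limit. The TLH cells came from collagenase digestion, whereas the nuclei came from snap-frozen liver. These differences cannot be told apart from the compartment in this contrast. The immune-enriched cells were run with the chemistry version and on the sequencer of the nuclei. However, parenchymal cells had been spun out of this preparation, it had been washed again, and its hepatocyte-like cells carried 31.0% to 36.3% mitochondrial UMIs.

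The size of the gap differed widely among the genes. Rpl37 had 326 to 1502 CPM in cells and 12.4 to 34.4 in nuclei, a log2 fold change of 5.55 ± 0.57 (adjusted p = 5.8e-06, edgeR). Rps25 followed with 391 to 859 against 13.6 to 33.1 CPM, or 4.78 ± 0.37, and Rpl26 with 4.39 ± 0.32. Rps29, Rplp2 and Rps18l1 also had values of 4.50 to 5.52, but at most 22.4 CPM in cells and at most 1.39 in nuclei. The small end held Rpl5, which carries 5S rRNA into the large subunit, with 579 to 775 CPM in cells and 189 to 444.3 in nuclei (1.07 ± 0.28), Rps2 (1.03 ± 0.29) and Rpl3, near the catalytic centre (0.66 ± 0.26, adjusted p = 0.0335, edgeR). Rpl3 overlapped between cells (547 to 660 CPM) and nuclei (239 to 549), and its change was -0.11 under scaling by total UMIs. Its call was lost when any one of the 4 TLH libraries, DA 2 nuclei or LEW 2 nuclei was left out (adjusted p = 0.0594 to 0.0901, edgeR), without the top 6% of cells by UMIs (0.117), and with the first-step clusters (0.202). The 2 genes lower in cells were sparse entries of Rpl21, ENSRNOG00000032803 at 0.357 to 0.834 CPM in cells and 2.89 to 5.00 in nuclei, and ENSRNOG00000049848 at 0 to 0.595 against 1.64 to 3.81.

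The composition of ribosomal protein UMIs gave a comparison of preparations that does not depend on their total. Of 70 members with at least 10 UMIs in the hepatocyte-like sums of each of the 10 droplet libraries, 56 were within 2-fold between TLH cells and nuclei, 8 were more than 2-fold higher in TLH and 6 more than 2-fold lower. Immune-enriched hepatocyte-like cells, which are cells but share version 3 chemistry with the nuclei, allowed the same comparison. They were within 2-fold of the nuclei for 65 of the 70 members and of TLH for 55. They also differed from both in depth, with median UMIs per cell of 8869.5 in DA and 13098 in LEW. The medians were 1826 to 2605 in TLH and 1458 to 2063 in nuclei. These cells are also those that remained after parenchymal cells were spun out. The part of chemistry, depth or preparation was not tested. Rps25 made up 0.531% of ribosomal protein UMIs in TLH, 0.0978% in immune-enriched cells and 0.113% in nuclei. Rpl26 had 1.41%, 0.441% and 0.400%, and Rpl32 (ENSRNOG00000010746) 0.927%, 0.230% and 0.300%. In the other direction the stalk gene Rplp0 had 1.23%, 2.68% and 2.78%, and Rpsa, a small-subunit gene, 0.933%, 2.10% and 2.27%.

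For other members the immune-enriched cells stood between, or apart from both. Rpl37 had 0.822% in TLH, 0.285% in immune-enriched cells and 0.102% in nuclei, Rpl3 0.510%, 1.15% and 1.91%, and Rpl5 0.584%, 0.739% and 1.63%. The main Rpl21 entry, ENSRNOG00000000957, had 2.28% in TLH and 2.01% in nuclei but 0.518% in immune-enriched cells, and Rps6 had 0.185%, 0.0412% and 0.146%. The immune-enriched means rest on 1 library of each strain. Their values for that Rpl21 entry were 0.515% and 0.521%, and for Rps6 0.0399% and 0.0425%.

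**Figure D4:**
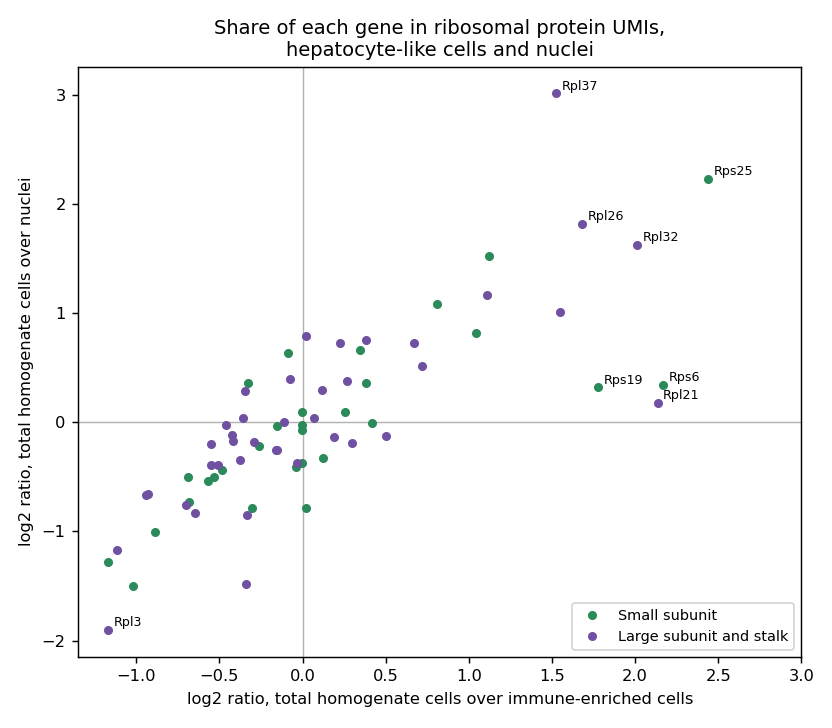
Log2 ratios of each gene's share of ribosomal protein UMIs in hepatocyte-like sums, TLH cells over immune-enriched cells (horizontal axis) and TLH cells over nuclei (vertical axis), for 70 genes coloured by subunit. Both axes share the TLH value, which by itself can give a rising diagonal. Rps25, Rpl26 and Rpl32 are high on both axes and Rpl3 is low on both, while Rps19, Rps6 and Rpl21 lie to the right near 0 on the vertical axis.

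Other genes of translation were examined in the same contrast, in which 33.9% of all genes were higher in cells and 37% lower. In cells against nuclei, 31 of 37 other translation genes (initiation and elongation factors and their partners) were higher in cells and 0 lower, with a median log2 fold change of 1.39. Mitochondrial ribosomal protein genes, which serve the ribosomes of mitochondria, were higher for 70 of 74 and lower for 1, with a median of 2.05. Ribosome biogenesis genes, whose products act largely in the nucleolus, were higher for 17 of 28 and lower for 2, with a median of 0.64. Under scaling by total UMIs, where 17.1% of all genes were higher and 58.8% lower, 23 other translation genes were higher and 5 lower (median 0.58), 59 mitochondrial ribosomal protein genes higher and 2 lower (1.25), and 7 ribosome biogenesis genes higher and 8 lower (-0.18). In the strain test of TLH hepatocyte-like cells, where 4.14% of all genes were called, 1 of 37 other translation genes, 0 of 28 ribosome biogenesis genes and 3 of 75 mitochondrial ribosomal protein genes passed, all higher in LEW.

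In the 3 TLH classes fitted gene by gene against hepatocyte-like cells (endothelial-like, mesenchymal-like and Marco myeloid-like) the changes were small. Lyz2/Cd74 myeloid-like and NK-like cells, which had the highest shares of the named TLH classes, were not fitted. Relative to all genes the members lay slightly lower in mesenchymal-like and slightly higher in Marco myeloid-like cells, and the first of these turned with another choice of hepatocyte-like clusters. Against hepatocyte-like cells, with the library as a block, 9 of 77 members were called in endothelial-like cells (2 higher, 7 lower, beside 43% of all genes, 20.8% higher and 22.2% lower). In mesenchymal-like cells 40 were called (1 higher, 39 lower, beside 45%, 23.2% and 21.8%), and in Marco myeloid-like cells 29 (26 higher, 3 lower, beside 54.6%, 28% and 26.6%). Without the library as a block these counts were 0, 12 and 10 (beside 27.1%, 32.2% and 42.9% of all genes), and the endothelial-like one was 25 with no low-count filter, 28 with a stricter cell filter and 23 at clustering resolution 1 (beside 24.6%, 39.5% and 42.8%). When libraries were scaled by total UMIs, 57, 31 and 68 were higher and 0 lower. Of all genes 39.1%, 39.2% and 41.4% were then higher and 9.25%, 8.47% and 17.5% lower, and their median moved to 0.29, 0.35 and 0.31. In mesenchymal-like cells 4 members called lower under TMM were called higher under total UMIs. This scaling moved all genes alike: of the members called under TMM, 6 of 9, 35 of 40 and 2 of 29 changed sign, but relative to the median of all genes the members' medians were -0.05, -0.20 and 0.13 under TMM and -0.05, -0.19 and 0.13 under total UMIs. With the hepatocyte-like clusters of the first naming step alone, 56, 23 and 68 were higher and 0 lower, beside 22.9%, 22.6% and 28.6% of all genes higher and 25.1%, 20.8% and 27.6% lower, and the members' medians were 0.28, 0.16 and 0.52. Without LEW 1 or LEW 2 the endothelial-like count was 5 and 4 (beside 35.4% and 37.1% of all genes) and the mesenchymal-like count 22 and 23 (beside 39.2% and 39.4%).

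In Marco myeloid-like cells the stalk gene Rplp0 rose by a log2 fold change of 0.80 ± 0.08 (adjusted p = 1.29e-11, edgeR) and Rpl18 by 0.71 ± 0.08. The lowest calls were Rps27l, a paralogue known as a p53 target, at -0.38 ± 0.09, Rps21 at -0.24 ± 0.08 and Rpl41 at -0.19 ± 0.08, and under scaling by total UMIs the last 2 turned to 0.037 and 0.085. In mesenchymal-like cells Rps21 (-0.46 ± 0.08), Rps27l (-0.41 ± 0.09) and Rpl41 (-0.41 ± 0.08) were the lowest calls, and in endothelial-like cells Rps21 (-0.35 ± 0.08) and Rpl41 (-0.33 ± 0.08), where Rpl41 turned to 0.011 under total UMIs. Rpl13a was the other higher call in endothelial-like cells (0.30 ± 0.10) and was lost without LEW 1 (adjusted p = 0.141, edgeR), with no low-count filter (0.0999) and without the library as a block (0.0827). Rps4y2 was the member with the largest difference in each contrast, 1.51 in endothelial-like, 1.72 in mesenchymal-like and 1.598 in Marco myeloid-like cells, with hepatocyte-like cells lowest in both strains. These 3 Rps4y2 calls did not pass without the library as a block, with adjusted p-values in edgeR of 0.202, 0.266 and 0.112.

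Lymphocytes of the immune-enriched libraries carried a broad increase over Marco myeloid-like cells, with the library as a block. In T-like cells 72 of 74 members tested were higher and 1 lower, beside 11.5% and 17.9% of all genes (29.4% called in all). In B-like cells 67 were higher and 2 lower (8.53% and 13.3%, 21.9% in all), and in NK-like cells 58 and 1 (12.7% and 16.2%, 28.9% in all). The median log2 fold changes were 2.42, 1.63 and 1.07. The fit rests on 2 libraries, and the classes share 1 estimate of the spread.

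The gain was larger for some genes than for others. Rps18 had 1453 CPM in DA and 1025 in LEW Marco myeloid-like cells against 11450 and 10575 in T-like cells, a log2 fold change of 3.16 ± 0.37 (adjusted p = 1.47e-07, edgeR). Rpl36a rose by 3.11 ± 0.37, Rpl13 by 2.94 ± 0.33 and Rpl12 by 2.85 ± 0.34 in T-like cells, and in B-like cells Rpl9 by 2.17 ± 0.44 and Rpl35 by 2.11 ± 0.33. The sparse Rps18l1 rose in all 3 classes, but had only 7 and 6 UMIs in Marco myeloid-like cells. Among the members that rose in T-like cells, Rpl10 and Rplp0 had the smallest gains. Rplp0 had 3043 and 2573 CPM in Marco myeloid-like and 8625 and 7252 in T-like cells (1.499 ± 0.32), and Rpl10 had 1754 and 1199 against 3557 and 3258 (1.22 ± 0.32). In NK-like cells Rpl10 (0.08 ± 0.32) and Rplp0 (0.17 ± 0.31) did not pass.

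Rps27l and Rps4y2 went against the group. Rps27l had 185 and 211 CPM in Marco myeloid-like cells, 97.2 and 138 in T-like, 80.1 and 105 in B-like and 112 and 116 in NK-like cells, so that both libraries were lower in each lymphoid class. The difference passed in B-like cells (-1.10 ± 0.40, adjusted p = 0.0463, edgeR) and not in T-like (0.124) or NK-like cells (0.117). Rps4y2 was called lower in all 3, but not without the library block (adjusted p = 0.0542 in T-like, 0.207 in B-like and 0.0823 in NK-like cells, edgeR). Of the paralogues, Rpl22l1 went with the group: it had 261 and 209 raw CPM in Marco myeloid-like cells and 1218 and 1115 in T-like cells. Rpl3l and Rpl10l, paralogues known from muscle and testis, had at most 9 and 6 UMIs in any class of either library.

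Other lists of the translation machinery had lower medians in T-like against Marco myeloid-like cells, a difference that was not tested, and were read beside 11.5% of all genes higher and 17.9% lower. Other translation genes were higher for 19 of 37 and lower for 1 (median 1.23), and ribosome biogenesis genes higher for 9 of 27 and lower for 0 (median 1.06). Mitochondrial ribosomal protein genes were higher for 4 of 70 and lower for 5 (median 0.13, beside -0.16 over all genes). Under scaling by total UMIs 8.56% of all genes were higher and 21.4% lower. Of the mitochondrial ribosomal protein genes 1 was then higher and 8 lower (median -0.14, beside -0.42). Other translation genes then had 18 higher and 1 lower, and ribosome biogenesis genes 6 and 0. Single genes of these lists rose by close to or above the ribosomal protein median of 2.42. The elongation factor gene Eef1a1 rose by 2.66 ± 0.34, Rack1 (ENSRNOG00000052620), whose product sits on the small subunit, by 2.47 ± 0.36, the nucleolar gene Npm1 by 2.38 ± 0.35 and Eef1b2 by 2.36 ± 0.37.

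**Figure D5:**
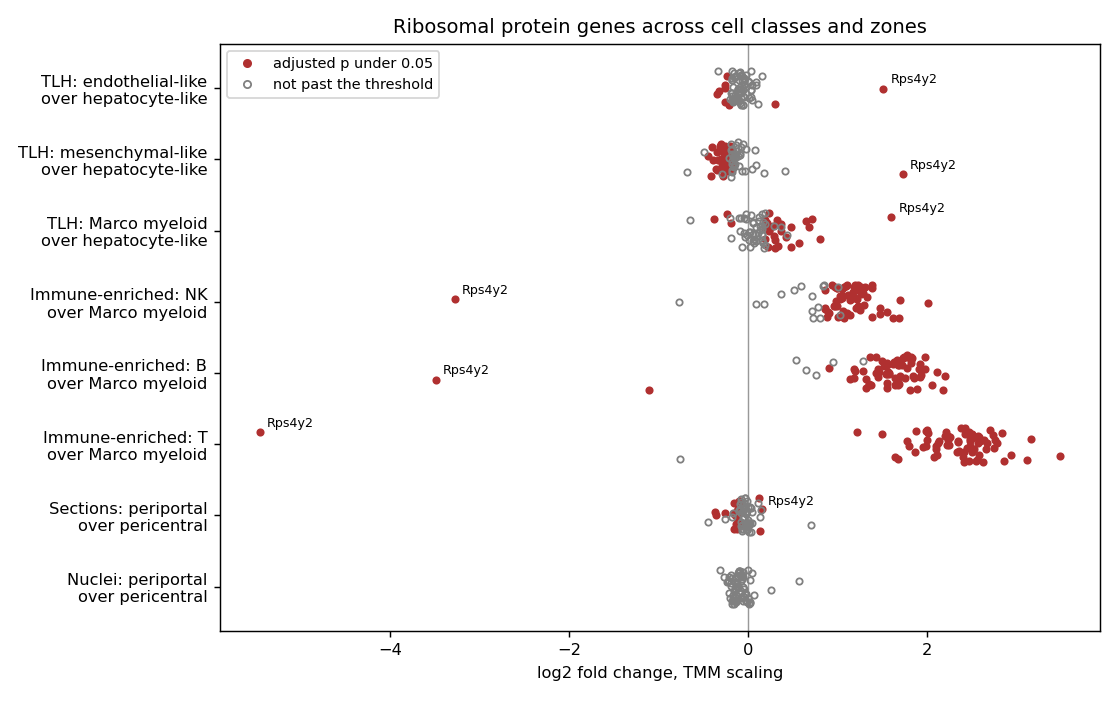
Log2 fold change under TMM scaling (horizontal axis) of each ribosomal protein gene tested in 6 contrasts of cell classes and 2 of liver zones (vertical axis); filled points passed an adjusted p of 0.05 in edgeR and open points did not. T-like cells centre on 2.42 and the TLH contrasts and zones near 0, and Rps4y2, labelled where tested, lies to the right of the TLH groups and to the left of the lymphoid ones.

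Across the liver lobule the genes changed little. Spots and hepatocyte-like nuclei were ranked by a score of periportal minus pericentral marker genes, which held no ribosomal protein gene, divided into periportal, middle and pericentral zones of equal size, and the outer zones were compared. In the sections the ribosomal protein share was 3.48% and 3.12% in pericentral and 3.31% and 2.98% in periportal spots, lower in the periportal zone of both by 0.172 and 0.139 points. With the section as a block, 23 of 77 members were called, against 11.2% of all genes. Of these 3 were higher in periportal spots (5.97% of all genes) and 20 lower (5.21%), with a median log2 fold change of -0.06. Rpl12 fell by 0.38 ± 0.04 on the log2 scale, from 173 to 130 CPM in one section and from 130 to 103 in the other (adjusted p = 9.08e-05, edgeR). Rpl22l1 fell by 0.36 ± 0.05 and Rps27l by 0.26 ± 0.03. Rps2 rose by 0.16 ± 0.02, Rps21 by 0.13 ± 0.03 and Rps27a (ENSRNOG00000004426) by 0.12 ± 0.03. A spot holds several cells, so fewer cells of a type and less RNA per cell cannot be told apart. DESeq2 called 8 members (beside 5.09% of all genes) and the fit without the section block 2 (beside 6.1%).

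In hepatocyte-like nuclei 0 of 72 members passed the zone test, against 7.96% of all genes, and 0 of 72 had an unadjusted p under 0.05 (edgeR; 17.5% of all genes). DESeq2 called 0 as well, a count not set beside the share of all genes. Both fits took the strains together, and changes in opposite directions offset each other in them. The share in the periportal minus the pericentral zone was -0.237 and -0.359 points in DA but 0.216 and 0.140 in LEW. Rpl22l1 had a log2 fold change of -0.27 ± 0.14 in these nuclei (adjusted p = 0.312, edgeR) and was the lowest of the better counted members. The middle zone had the highest share in all 4 libraries, at 3.22%, 2.47%, 4.18% and 2.10%. It also had the fewest UMIs per nucleus, with medians of 1294 to 1687 against 1389 to 2353 in the pericentral zone, and the part of depth in this was not tested.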

How the data were processed

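Reads were aligned by the authors in Cell Ranger 3.1.0, or Space Ranger 1.1.0 for the sections, to a custom reference of build Rnor_6.0. The deposited values are UMI counts, not normalized. For TLH and the immune-enriched libraries each row was named from the gene list of the nuclei, which has as many rows. Cells were kept with at least 1000 to 2000 UMIs by library and a mitochondrial share of at most 10% to 50%, and spots with 1000 UMIs. Cells were clustered with leidenalg 0.10.2 and named from marker lists, with a second comparison for hepatocyte-like clusters alone that was loosened after seeing the data.

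UMI sums per library and class were tested with edgeR 4.0.16 in R 4.3.3 (quasi-likelihood, TMM, default low-count filter, Benjamini-Hochberg at 0.05 over all genes). DESeq2 1.42.0 was the alternative test, and shares were compared by exact permutation in scipy 1.17.1. The count tests were tried on simulated data for 2 contrasts only, strain in TLH hepatocyte-like cells and zones in the sections. Each simulation gave all genes the same spread, so genes that vary much between libraries, such as Rpl37, were not covered. The labels number the libraries of a strain, and the study describes separate livers for TLH, 2 per strain, and other rats for the nuclei, 2 per strain. The animal numbers in the names of the data run the other way in TLH than in nuclei for DA and recur in both, so numbers here are those of the sample titles and do not tie a TLH library to one of nuclei. The nuclei libraries shared 8 to 24 barcodes per pair.

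The members and gene lists were chosen with earlier results of these data known. The rule for named genes took the 10 largest TLH shares, up to 10 called genes with strains apart per strain contrast, the 5 genes at each end of every other contrast, the paralogues and the entries under 100 UMIs, and from each contrast those that passed or bear on the text are given. Genes named for gaps between libraries or preparations, and Rpl10a, were chosen after their values were seen. Scaling by total UMIs, crossed numbers and first-step clusters are alternatives chosen after seeing the data. Intervals and floors cover counting error only. The mixed model of the study was not run. Some genes that the rule names are not reported here.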

Additional observations from a re-analysis of the deposited data

Results flagged for a closer look

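The ribosomal protein share of hepatocyte-like nuclei went opposite ways along the lobule in the strains. The periportal zone minus the pericentral zone was -0.237 percentage points in DA 1 and -0.359 in DA 2, but 0.216 in LEW 1 and 0.140 in LEW 2. All libraries of each strain moved the same way and the strains in opposite ways, which put the result here, and the difference between strains was not tested. With smaller outer zones the values were -0.330, -0.366, 0.315 and 0.0600. Depth differed between the zones of equal size too. The median UMIs per nucleus were 1753 periportal against 1389 pericentral in DA 1 and 2080 against 1671.5 in DA 2. They were 1691 against 1480 in LEW 1 and 2142 against 2353 in LEW 2. The part of depth in these differences was not tested. In the Wistar sections the share was lower in the periportal zone of both, by 0.172 and 0.139 points.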

How the results depend on the processing

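Over the single genes chosen by the naming rule, directions were kept in all but the reversals given here. Over all called members, 6 of 9 in endothelial-like, 35 of 40 in mesenchymal-like and 2 of 29 in Marco myeloid-like cells turned under scaling by total UMIs, which left the members' medians relative to all genes at -0.05, -0.19 and 0.13, and 4, 32 and 2 with first-step clusters. Under scaling by total UMIs, Rpl3 in cells against nuclei turned to -0.11, Rpl41, Rps20 and Rpsa in endothelial-like cells to 0.011, 0.081 and 0.083, and Rps21 and Rpl41 in Marco myeloid-like cells to 0.037 and 0.085. With first-step hepatocyte-like clusters, Rps20 in endothelial-like cells turned to 0.15, and Rps21 and Rpl41 in Marco myeloid-like cells to 0.070 and 0.090. The LEW minus DA share turned to -0.718 points in TLH hepatocyte-like cells with these clusters. Leaving out single libraries gave -1.08 to 1.84 points in Marco myeloid-like, -0.518 to 1.11 in endothelial-like and -0.136 to 1.099 in mesenchymal-like cells, and -0.634 to 1.19 in hepatocyte-like nuclei, where -0.0166 was also reached. Without mitochondrial UMIs the mean shares were 9.76% in TLH hepatocyte-like cells and, in immune-enriched cells, 41.3% in T-like, 28.5% in B-like, 21.8% in NK-like, 9.80% in Marco myeloid-like and 5.91% in hepatocyte-like cells.

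Members called between strains were 3 in TLH hepatocyte-like cells with no low-count filter (beside 7.18% of all genes). Leaving out single libraries gave 0 to 11 in Marco myeloid-like cells (11 without DA 1, 5 without DA 2, 0 without LEW 1, beside 12.6%, 7.89% and 0.844%), 0 to 7 in endothelial-like cells (7 without either DA library, beside 7.84% and 5.85%, 0 without either LEW library, beside 0.21% and 0.711%) and 0 to 1 in nuclei. Between TLH classes, leaving out libraries gave 4 to 9 for endothelial-like and 22 to 38 for mesenchymal-like cells. The share of all genes is given above only for the fits without a LEW library. The endothelial-like count was 25 with no low-count filter, 28 with a stricter cell filter and 23 at clustering resolution 1 (beside 24.6%, 39.5% and 42.8% of all genes), and the mesenchymal-like count at that resolution was 26 (43.7%). Scaling by total UMIs gave 57 for endothelial-like and 68 for Marco myeloid-like cells, and first-step clusters 56, 23 and 68 for endothelial-like, mesenchymal-like and Marco myeloid-like cells. Zones in the sections gave 8 with DESeq2 (5.09%).

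The replicate number as a block left 1 member called in each TLH strain comparison and 0 in nuclei, counts that are not set beside the share of all genes. Same-numbered libraries of the strains had correlations of -0.136, -0.102 and -0.0768 in TLH hepatocyte-like, Marco myeloid-like and endothelial-like cells and 0.317 in nuclei, which with 2 pairs does not show pairing. Crossed numbers left 1 member in TLH hepatocyte-like and Marco myeloid-like cells, with 771 and 670 genes. Without the library or section block the counts were 0, 12 and 10 for endothelial-like, mesenchymal-like and Marco myeloid-like cells (beside 27.1%, 32.2% and 42.9% of all genes) and 2 for zones in the sections (6.1%). Without that block 72, 55 and 66 members were called in T-like, NK-like and B-like cells (27.2%, 26.7% and 20%). The causes were not tested. Fits without 1 section or 1 immune-enriched library were not run. With 2 libraries per strain, shares could not pass a test, and sparse members such as Rplp2 or Rps4y2 in nuclei (5 to 24 UMIs) could show only large differences.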
